A study of Mus musculus with 8 samples.

Results

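The small leucine-rich proteoglycans described here are 8 genes, Dcn, Bgn, Aspn, Lum, Fmod, Prelp, Omd and Ogn, taken by gene symbol from a table of 15035 genes measured in mouse auditory nerve. All 8 were found in the table and all 8 passed the filter on low values, which kept 14870 genes. The choice of the genes used no measured value of this comparison, although it was made with earlier results of these data known. RNA was sequenced from nerves dissected out of the cochlea at postnatal day 21, and the nerves of both cochleas of a mouse were pooled into 1 library. The groups are 4 wild-type libraries (replicates 1 to 4) and 4 libraries labelled Mef2c heterozygote (replicates 5 to 8), and the design asks which transcripts differ between them. The labels give the mutant genotype as Mef2c +/- and name no allele, strain, sex or litter, and the sources used here do not say in which cells the gene is altered.

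Small leucine-rich proteoglycans are secreted proteins with a curved core of leucine-rich repeats, most of which carry chondroitin, dermatan or keratan sulphate chains. They bind collagen fibrils and set their diameter and spacing, and several also bind growth factors of the TGF-beta family. In a nerve they lie in the connective tissue sheaths and between the axons, and around the auditory nerve also in the surrounding bone, cartilage and meninges. Class I holds decorin (Dcn), biglycan (Bgn) and asporin (Aspn), class II holds lumican (Lum), fibromodulin (Fmod), prolargin (Prelp) and osteomodulin (Omd), and class III holds osteoglycin (Ogn).

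Values are normalized counts, in which the reads of a gene are scaled by a factor for its library. The estimated depth was 13363365 to 21507209 reads a library, and 3 reads are worth 2.37 to 3.89 normalized counts, so that the lowest value of any of the 8 genes, 45.6 for Aspn, lay well above that floor. The libraries labelled heterozygote had more Mef2c transcript than wild type: 438.6, 498.4, 508.7 and 402.2 normalized counts in wild-type libraries 1 to 4, and 583.3, 704.9, 735.1 and 649.8 in libraries 5 to 8 (log2 fold change 0.53, standard error 0.13, limma-trend adjusted p = 0.186, and FDR 0.0162 in the authors' deposited table). The genotypes did not overlap in Mef2c. Because no allele is named, the level of this transcript cannot tell whether the label is right. Directions below are therefore between libraries as labelled. Wild-type library 1 had the highest summed level of the 8 proteoglycans, and wild-type library 1 and heterozygote-labelled library 5 had almost no Xist, the transcript of the inactive X chromosome (12 and 7.6 normalized counts), so several results below are given with and without them. Markers of neurons (10 of 10 in the table, 151984 to 210311 summed normalized counts) and of Schwann cells (9 of 9, 110697 to 155362) were abundant in every library, as the tissue label says. Markers of leptomeninges, bone, cartilage and cochlear fibrocytes were present too. In bulk tissue, fewer cells of a type and less RNA per cell cannot be told apart.

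Decorin was by far the most abundant of the 8 transcripts and asporin the least. Levels between genes are compared as normalized counts per kilobase of the longest coding transcript. In wild type, Dcn stood at 5947 ± 2037 per kilobase (SD, n = 4), followed by Ogn at 1128 ± 174, Bgn at 886 ± 235, Lum at 656 ± 243, Fmod at 586 ± 193 and Prelp at 426 ± 61.5. Omd, at 131 ± 31.0, and Aspn, at 29.1 ± 7.91, closed the order. The ranges of neighbours in this order overlapped from Ogn down to Prelp, and did not overlap between Dcn and Ogn, Prelp and Omd, or Omd and Aspn. In the libraries labelled heterozygote the order was the same except that Fmod, at 801 ± 180 per kilobase, stood above Lum at 651 ± 132 (SD, n = 4 each). Dcn made up 53.1% to 64.7% of the per-kilobase sum of the 8 genes in the 8 libraries, and Omd 0.760% to 2.87%. Together the 8 genes took 0.0903% to 0.167% of the normalized counts of a library.

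**Figure D1:**
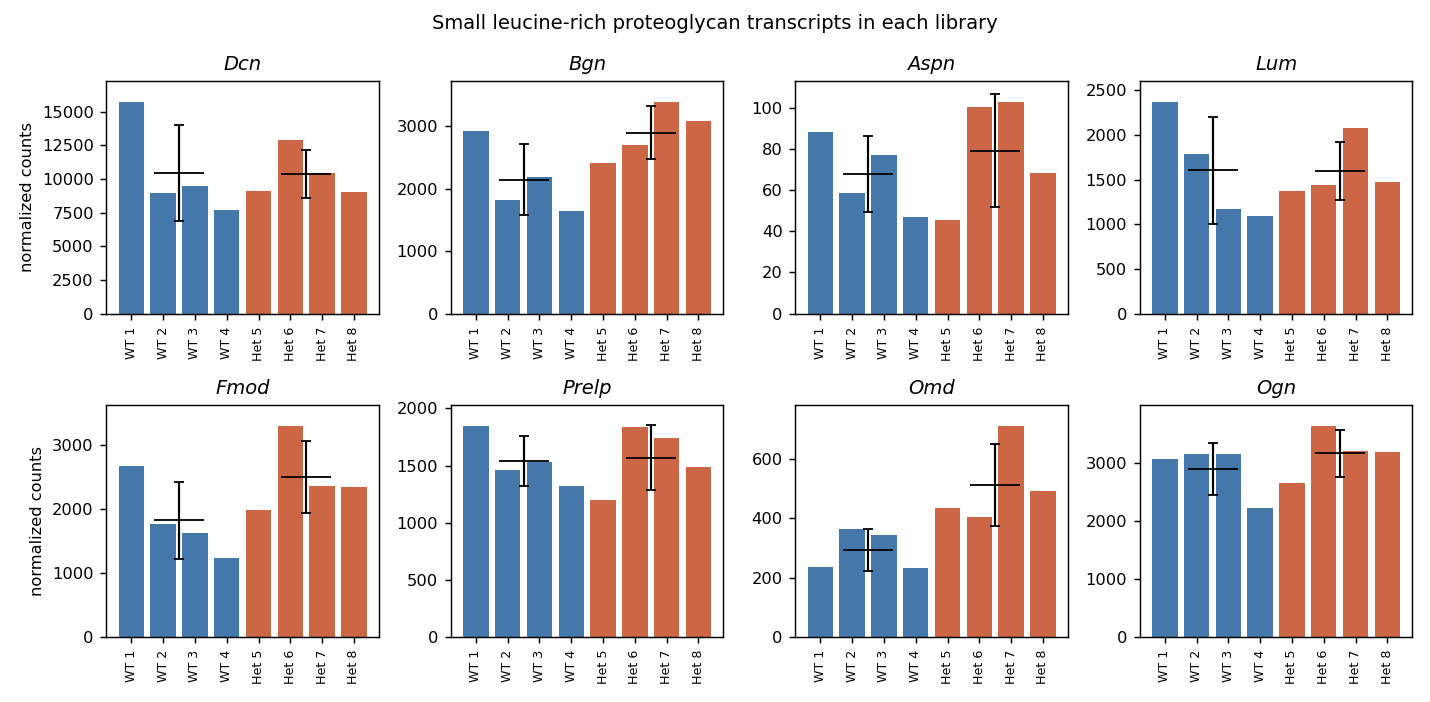
Normalized counts of the 8 proteoglycan transcripts in each library, 1 panel per gene with its own axis from 0; blue bars are wild-type libraries 1 to 4, orange bars libraries 5 to 8 labelled heterozygote, and the black marks give each group's mean and SD. Omd is the gene in which every orange bar stands above every blue bar, the lowest at 406.0 against 364.3, and wild-type library 1 is the tallest bar for Dcn, Lum and Prelp.

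Across genotypes, 3 of the 8 transcripts differed at an unadjusted p under 0.05, Omd, Bgn and Fmod, each with its higher mean in libraries 5 to 8, and 0 of 8 passed 0.05 after adjustment over all 14870 genes (limma-trend, Benjamini-Hochberg). Among all genes tested, 0.0807% passed after adjustment (0.00672% with the higher mean in libraries 5 to 8), 14.1% had an unadjusted p under 0.05, and 6.72% had one with the higher mean in libraries 5 to 8. The other 5 transcripts had intervals that included 0. The median log2 fold change of the 8 genes was 0.16, against 0.02 over all genes tested. All 8 estimates were above 0, as were 52.3% of all genes, but those of Dcn, Lum and Prelp were close to 0 and changed sign in some of the 18 alternative analyses. Those of Omd, Bgn, Fmod, Ogn and Aspn kept their sign in all 18, although without wild-type library 4 that of Ogn was 0.012 and that of Aspn 0.035. Nothing says whether the mice of a group were littermates. The limma-trend p-values set a difference of means against the spread between these libraries, which limma-trend moderates using all genes.

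Omd encodes osteomodulin, a keratan sulphate proteoglycan made mainly by osteoblasts and bound to bone mineral, and it showed the widest difference. Wild-type libraries 1 to 4 had 236.2, 364.3, 344.7 and 233.1 normalized counts, and libraries 5 to 8 had 435.6, 406.0, 711.5 and 493.2. The genotypes did not overlap in Omd, 1 of the 8 members. Among all genes tested 7.26% did not overlap, and 3.4% did not with libraries 5 to 8 the higher. Library 7 was well above the rest. The means were 294.6 ± 69.7 and 511.6 ± 138 normalized counts (SD, n = 4 each), a ratio of 1.74. Its log2 fold change was 0.79 (standard error 0.21), its 95% interval 0.33 to 1.25, with an unadjusted limma-trend p of 0.00291 and an adjusted p of 0.222. In the authors' deposited table, Omd was the 1 gene of the 8 with an FDR under 0.05, at 0.0374 with a ratio of 1.73, where 1.61% of the 15024 genes with a p-value had such an FDR and 0.672% had one with the higher mean in libraries 5 to 8. Without library 7 the log2 fold change was 0.62.

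Omd lies in a cluster of related genes on chromosome 13 (mouse build mm10, the same assembly as GRCm38). In the GENCODE M21 annotation Aspn occupies chr13:49544443-49567565, Omd chr13:49582462-49592822 and Ogn chr13:49608046-49624501, all on the plus strand and within 80.1 kilobases. All 3 overlap Cenpp, a kinetochore gene on the other strand, whose exons overlap those of Aspn only. Whether the authors counted by strand is not given in the sources used here, and Cenpp had 3.7 to 16.3 normalized counts. In library 5 it had 16.3 against 45.6 for Aspn, so the values of Aspn are uncertain to that extent. The 250 bases before the RefSeq start of each gene (GRCm38.p6, plus strand, 5′ to 3′) are shown because these 3 genes are adjacent, while their levels and their estimates between genotypes are not alike in size. Capitals mark matches on either strand to TATAAA, to the RUNX core TGTGGT, to the AP-1 site TGANTCA or to the MEF2 box. The windows are chr13:49544193-49544442 for Aspn, chr13:49582212-49582461 for Omd and chr13:49607765-49608014 for Ogn.
Aspn: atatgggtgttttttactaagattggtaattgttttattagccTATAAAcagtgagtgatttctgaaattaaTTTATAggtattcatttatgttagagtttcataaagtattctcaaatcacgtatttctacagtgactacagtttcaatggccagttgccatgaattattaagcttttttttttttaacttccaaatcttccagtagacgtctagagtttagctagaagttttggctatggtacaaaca
Omd: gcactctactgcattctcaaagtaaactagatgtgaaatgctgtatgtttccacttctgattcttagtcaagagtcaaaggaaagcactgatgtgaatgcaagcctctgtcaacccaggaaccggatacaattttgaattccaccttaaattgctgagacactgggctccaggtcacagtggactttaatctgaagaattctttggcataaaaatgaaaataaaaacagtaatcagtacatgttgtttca
Ogn: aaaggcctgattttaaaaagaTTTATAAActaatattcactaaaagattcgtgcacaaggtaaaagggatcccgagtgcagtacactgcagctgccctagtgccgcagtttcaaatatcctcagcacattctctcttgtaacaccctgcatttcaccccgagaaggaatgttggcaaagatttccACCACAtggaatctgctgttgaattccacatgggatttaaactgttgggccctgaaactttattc

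Aspn had 2 matches to TATAAA in this window, 207 to 202 bases and 178 to 173 bases before its start. Ogn had 2 that overlap each other, between 229 and 222 bases before the start, and 1 match to TGTGGT 65 to 60 bases before it. Omd had none of the 4 motifs. RefSeq sequences were matched for 6 of the 8 genes (Bgn, Fmod, Ogn, Omd, Prelp and Aspn), and none of the 6 had a MEF2 box or TGANTCA in this window. Of 32851 promoter windows of the same length, 12.4% held TATAAA, 14.0% TGTGGT, 6.75% TGANTCA and 2.92% a MEF2 box. These are matches of letters only. The windows of Aspn and Omd were 30% and 38.4% G or C, against a median of 52.4% over all windows.

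The estimates for the neighbours of Omd were smaller. Ogn, for osteoglycin, also called mimecan, had 3065, 3145, 3143 and 2229 normalized counts in wild-type libraries 1 to 4 and 2652, 3632, 3192 and 3176 in libraries 5 to 8. The groups overlapped, with wild-type library 4 alone at the bottom. The log2 fold change of Ogn was 0.13 with a 95% interval of -0.15 to 0.42 (limma-trend adjusted p = 0.650). Aspn, for asporin, a class I protein with an aspartate-rich end, had 88.2, 58.4, 77.0 and 47.1 normalized counts in wild type and 45.6, 100.2, 102.7 and 68.4 in libraries 5 to 8. Its lowest and its highest values were both in libraries labelled heterozygote. The log2 fold change of Aspn was 0.19, with the widest interval of the 8 genes, -0.53 to 0.92 (limma-trend adjusted p = 0.807), and it was 0.43 without library 5 and 0.57 without both libraries low in Xist.

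Among the class I genes, Bgn had an unadjusted p under 0.05, with the higher mean in libraries 5 to 8, and Dcn had an estimate near 0. Bgn encodes biglycan, abundant in bone matrix, and is X-linked (chrX:73483602-73495933 in GENCODE M21). It had 2924, 1821, 2186 and 1640 normalized counts in wild-type libraries 1 to 4 and 2414, 2694, 3381 and 3074 in libraries 5 to 8. Wild-type library 1 was the only wild-type library inside the range of the other group. The log2 fold change of Bgn was 0.46 (standard error 0.17), with an unadjusted limma-trend p of 0.0189 and an adjusted p of 0.288. Without wild-type library 1 it was 0.62, with a limma-trend adjusted p of 0.109, and without both libraries low in Xist it was 0.70, with a limma-trend adjusted p of 0.0870.

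Dcn encodes decorin, which coats type I collagen fibrils and binds TGF-beta. It had 15705, 8932, 9501 and 7682 normalized counts in wild type and 9112, 12873, 10453 and 9013 in libraries 5 to 8. Wild-type library 1 was the highest of all 8 libraries, and the groups overlapped over most of their range. The log2 fold change was 0.03 with a 95% interval of -0.40 to 0.46 (limma-trend adjusted p = 0.958), while the ratio of the linear means was 0.991. Without wild-type library 1 the log2 fold change was 0.24 with an interval of -0.04 to 0.53 (limma-trend adjusted p = 0.473). Without both libraries low in Xist it was 0.30 (limma-trend adjusted p = 0.379).

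In class II, Fmod was the gene after Omd with the largest difference. Fibromodulin binds type I collagen and guides its cross-linking in tendon and other dense tissue. Its transcript had 2668, 1769, 1630 and 1243 normalized counts in wild type and 1982, 3299, 2367 and 2348 in libraries 5 to 8. Wild-type library 1 again lay inside the range of the other group, and the other 3 wild-type libraries lay below it. The log2 fold change of Fmod was 0.48 (standard error 0.21), with an unadjusted limma-trend p of 0.0405 and an adjusted p of 0.337. Without wild-type library 1 it was 0.68, with a limma-trend adjusted p of 0.156.

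Lum and Prelp had estimates near 0. Lumican, best known for spacing the collagen fibrils of the cornea, had 2368, 1785, 1175 and 1092 normalized counts in wild type and 1378, 1446, 2075 and 1478 in libraries 5 to 8. Both the highest and the lowest value of Lum were in wild type. Its log2 fold change was 0.04 with a 95% interval of -0.45 to 0.53 (limma-trend adjusted p = 0.942). That estimate was 0.25 without wild-type library 1 and 0.32 without both libraries low in Xist. Prolargin, which links basement membranes to collagen, had 1848, 1459, 1534 and 1324 normalized counts in wild type and 1204, 1837, 1746 and 1489 in libraries 5 to 8. The groups of Prelp overlapped throughout, with a log2 fold change of 0.02 and a 95% interval of -0.30 to 0.33 (limma-trend adjusted p = 0.964). Prelp overlaps an antisense transcript, Gm15851, that was not analysed here.

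**Figure D2:**
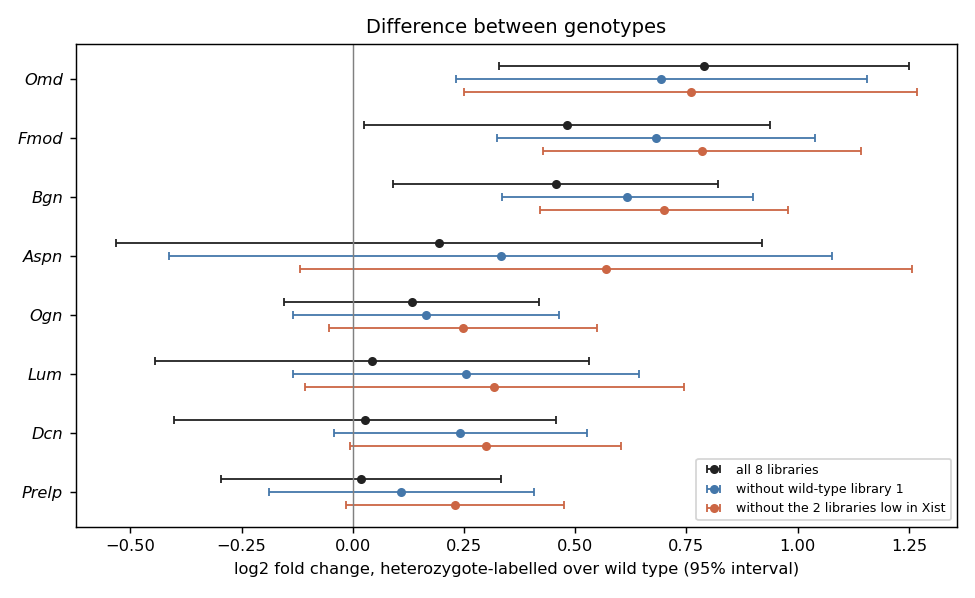
Log2 fold change of each proteoglycan transcript, libraries labelled heterozygote over wild type (x axis), with 95% limma-trend intervals that are not adjusted for the number of genes, from all 8 libraries (black), without wild-type library 1 (blue) and without the 2 libraries low in Xist (orange). The intervals of Omd, Fmod and Bgn lie above 0 in all 3 fits, and those of the other 5 genes include 0 in all 3. The blue and orange fits both leave out wild-type library 1, the highest in the summed proteoglycans. The fit without wild-type library 4 is not drawn. Its estimates were 0.69 for Omd, 0.31 for Fmod and 0.34 for Bgn, and those of Dcn, Lum and Prelp were below 0.

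Wild-type library 1 moved the estimates of several members in the same direction. It had the highest summed level of the 8 genes, so leaving it out lowers most of their wild-type means. Higher estimates without it follow from that, and the fit without both libraries low in Xist leaves it out too. Without wild-type library 1, all 8 estimates were above 0, and their median was 0.29 against -0.002 over all genes. The genes with an unadjusted limma-trend p under 0.05 were again Omd, Bgn and Fmod, 3 of 8 against 11.9% of all genes, or 6.5% with the higher mean in libraries 5 to 8. Without both libraries low in Xist the median was 0.44 against 0.003, and 3 of 8 genes had an unadjusted p under 0.05, against 13.6% of all genes, or 7.16% with the higher mean in libraries 5 to 8. After adjustment, 0 of 8 passed in either fit, nor did any in the other 16 alternatives. The adjusted p of Omd over its alternatives ran from 0.0678 without wild-type library 3 to 0.590. Leaving out wild-type library 4, the lowest in 6 of the 8 members, moved the estimates the other way. They were then -0.10 for Dcn, -0.12 for Lum, -0.052 for Prelp, 0.012 for Ogn and 0.035 for Aspn. Those of Bgn, Fmod and Omd were 0.34, 0.31 and 0.69.

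A ratio of 2 members within a library takes out the scaling factor and whatever else the 2 share there, and 5 such ratios were compared, between genes of the same genomic cluster or the same class. The ratio of Omd to Ogn was 0.0774, 0.116, 0.110 and 0.105 in wild-type libraries 1 to 4 and 0.165, 0.112, 0.223 and 0.156 in libraries 5 to 8. Library 6 fell within the wild-type range, and the other 3 lay above it. On the log2 scale the ratio was 0.66 higher in the libraries labelled heterozygote, -3.31 ± 0.26 against -2.65 ± 0.41 (SD, n = 4 each, two-sided exact permutation p = 0.0571, adjusted over the 5 ratios 0.143). This difference was 0.53 without wild-type library 1 and 0.51 without both libraries low in Xist. The log2 ratio of Fmod to Prelp was 0.20 ± 0.27 in wild type and 0.66 ± 0.17 in libraries 5 to 8, a difference of 0.46 (n = 4 each, exact permutation p = 0.0571, adjusted 0.143). The log2 ratio of Bgn to Dcn was -2.27 ± 0.13 against -1.84 ± 0.32, a difference of 0.43 (n = 4 each, exact permutation p = 0.0857, adjusted 0.143). Lum to Dcn and Aspn to Ogn differed by 0.02 and 0.06 (n = 4 each, exact permutation p = 0.943 and 0.800, both 0.943 after adjustment). None of the 5 ratios passed 0.05, and 4 libraries against 4 cannot give a two-sided p under 0.0286.

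**Figure D3:**
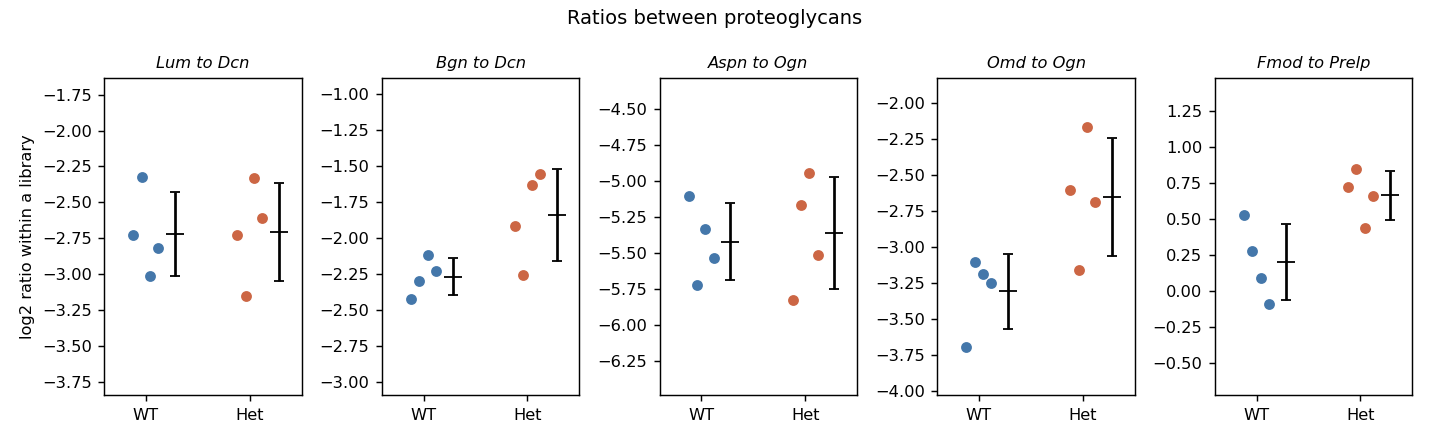
Log2 ratio of 2 transcripts within a library for 5 pairs of proteoglycans (y axis, each panel spanning the same number of log2 units), with 1 point per library for wild type (blue) and the libraries labelled heterozygote (orange) and the mean and SD beside them. Bgn to Dcn, Omd to Ogn and Fmod to Prelp have higher means in the libraries labelled heterozygote with some overlap of points, and Lum to Dcn and Aspn to Ogn have nearly equal means.

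Correlations between members across libraries were mostly positive, and 1 of 28 pairs passed the test. Over the 28 pairs of genes the median Pearson r of log2 values across the 8 libraries was 0.60, and 27 of 28 were positive. Prelp and Aspn were the 1 pair that passed 0.05 (Pearson r = 0.95, exact permutation p = 0.000645, adjusted over the 28 pairs 0.0181; Spearman rho = 0.90, exact permutation p = 0.00456, adjusted 0.128), and without the 2 libraries farthest from the median of Prelp r was 0.97. Of the 28 pairs, 10 had an unadjusted exact permutation p under 0.05 for Pearson r. The r of Omd with the other 7 genes ran from -0.12 with Dcn to 0.60 with Bgn, with a median of 0.34, against medians of 0.58 to 0.73 for each of the other genes. Taken as deviations from the genotype means, the median r over the pairs was 0.68, and for the pairs of Omd 0.18. All these values share the libraries and their size factors. The median r for pairs of other genes was not computed, so whether these values are particular to the family was not tested. Leaving out single libraries gave 0 to 2 pairs that passed, 0 of them without wild-type library 2, 3 or 4 or heterozygote-labelled library 6 or 8, and 2 without wild-type library 1 or heterozygote-labelled library 5.

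**Figure D4:**
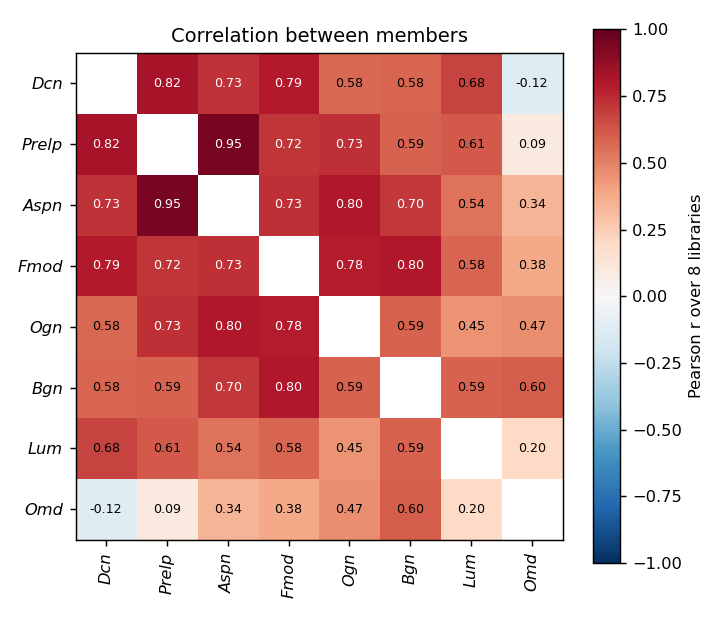
Pearson correlation of log2 values across the 8 libraries for every pair of the 8 proteoglycan transcripts (colour and printed value, diagonal left blank). Omd, in the last row and column, has the lowest values, down to -0.12 with Dcn, and Prelp with Aspn the highest, 0.95.

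The genes whose pattern across the 8 libraries was most like each member were sought among 13348 genes with a mean of at least 50 normalized counts. For Dcn it was Slc6a13 (r = 0.99), a GABA and taurine transporter of the leptomeninges, for Fmod Thsd4 (0.99), for Omd Igsf3 (0.98), for Lum Actb (0.97), for Bgn Plekhh2 (0.97), for Aspn Dtx1 (0.97), for Prelp Ttc23 (0.97) and for Ogn Zic5 (0.96). For the mean profile of the 8 members, the most alike genes included Bicc1, Sod3, Pard6g and Serpinb9, with r from 0.96 to 0.97. Sod3 encodes the extracellular superoxide dismutase. These are the highest of many values over 8 libraries and are given as a description.

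Marker lists of the cell types that make these proteoglycans moved with them in part. All 8 leptomeningeal markers were in the table, none was at 0 in any library, and their sum, in which Ptgds is by far the largest term, was 177729 to 299185 normalized counts in wild type and 181500 to 295364 in libraries 5 to 8. That sum was highest in wild-type library 1 and heterozygote-labelled library 6, the same 2 libraries in which Dcn and Fmod were high. Slc6a13 had 3241 and 2450 normalized counts in those 2 libraries and 1233 to 1884 in the other 6. It is the gene found above by its likeness to Dcn, so its match with Dcn follows from that search. None of the 8 leptomeningeal genes passed the test, and their median log2 fold change was 0.15.

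The osteoblast and osteocyte markers, 12 of 12 in the table and none at 0, summed to 3929 to 14181 normalized counts in wild type and 8208 to 17748 in libraries 5 to 8. Library 7, the highest in Omd and Bgn, was also the highest in this sum, and wild-type library 4, the lowest in both, was the lowest. All 12 genes had log2 fold changes above 0 with a median of 0.68, 5 of 12 were higher at an unadjusted limma-trend p under 0.05 against 6.72% of all genes, and 0 passed after adjustment. The 2 most abundant were Dmp1, an osteocyte matrix protein (log2 fold change 0.50, limma-trend adjusted p = 0.283), and Bglap, osteocalcin (0.79, adjusted p = 0.608). Wild-type library 1 had the second highest sum, 14181, yet only 236.2 normalized counts of Omd. Its largest terms there were Bglap and Bglap2, at 4399 and 2258 normalized counts, so its rank rests largely on these genes. In library 7 they had 3876 and 2532. Neutrophil markers, 4 of 7 in the table and none at 0, had a median log2 fold change of 3.67. For 3 of 4 the unadjusted limma-trend p was under 0.05 with the higher mean in libraries 5 to 8, against 6.72% of all genes, the groups overlapped in the other, Ltf, and 0 passed the test. They summed to 106.3 to 2346 normalized counts in wild type and 649.1 to 6030 in libraries 5 to 8, again highest in library 7. Their 2 most abundant genes were Ngp (log2 fold change 3.73, limma-trend adjusted p = 0.0920) and Ltf (1.90, adjusted p = 0.410). The part of bone, marrow or meningeal tissue in the differences of Omd, Bgn and Fmod was not tested.

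General fibroblast markers were closer to level. The 12 genes of the epineurial and general fibroblast list, none at 0, summed to 25163 to 29021 normalized counts in wild type and 27581 to 31123 in libraries 5 to 8, with a median log2 fold change of 0.06 and 0 genes past the test. Of the 12, 8 had log2 fold changes above 0 and 4 below. At an unadjusted limma-trend p under 0.05, 0 were higher and 1 was lower, against 14.1% of all genes in either direction. Their 2 most abundant members were the actin-severing protein Gsn (log2 fold change 0.23) and the surface protein Thy1 (0.00), with limma-trend adjusted p of 0.366 and 0.986. Other cells of the nerve express both too. With wild-type means of 12046 and 7855 normalized counts, they are the largest terms in the sum of this list. Perineurial (8 of 8) and endoneurial fibroblast markers (6 of 6) had medians of 0.06 and 0.04, with 0 genes past the test in each. At an unadjusted limma-trend p under 0.05, 0 perineurial genes differed. Of the 6 endoneurial genes, 1 was higher and 1 lower at that threshold, against 14.1% of all genes in either direction. Of 10 chondrocyte markers 7 were in the table, with a median of 0.50, 3 of 7 higher at an unadjusted p under 0.05, against 6.72% of all genes, and 0 past the test. Tenocyte markers (5 of 5) and cochlear fibrocyte markers (7 of 7) had medians of 0.23 and 0.21, again with 0 past the test. Of the lists for cells not known for these proteoglycans, oligodendrocyte markers had 4 of 10 genes past the test, against 0.0807% of all genes. Among the 4 were Mog, Mobp and Klk6. All 4 were lower in libraries 5 to 8, and the median over the list was -1.29.

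**Figure D5:**
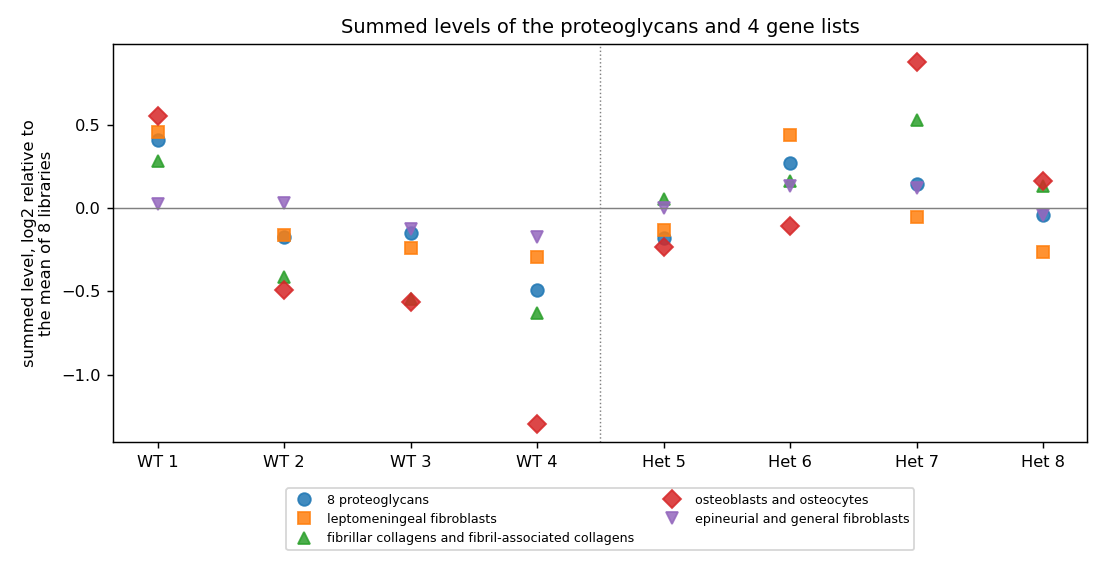
Summed normalized counts of the 8 proteoglycans and of 4 gene lists in each library, as log2 relative to that sum's mean over the 8 libraries, with wild type left and the libraries labelled heterozygote right of the dotted line. Wild-type library 1 and library 6 are high in proteoglycans and leptomeningeal markers, and library 7 is highest in osteoblast markers and collagens.

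The collagens that the proteoglycans bind pointed the same way as Bgn and Fmod. Of 13 genes of fibrillar, microfibrillar and fibril-associated collagens, all 13 had log2 fold changes above 0, with a median of 0.39. For 7 of 13 the unadjusted limma-trend p was under 0.05, against 6.72% of all genes in that direction, and 0 passed after adjustment. Col1a1, the main chain of type I collagen, averaged 3952 ± 2994 normalized counts in wild type and 7732 ± 2878 in libraries 5 to 8 (SD, n = 4 each), with a log2 fold change of 1.14 (limma-trend adjusted p = 0.266). Wild-type library 1, at 8423 normalized counts of Col1a1, exceeded 3 of the 4 libraries labelled heterozygote. Col1a2, its partner chain, had a log2 fold change of 0.44 (limma-trend adjusted p = 0.302).

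In the other pathway lists, 0 genes passed the test, and their counts at an unadjusted p under 0.05 stand against 14.1% of all genes in either direction and 6.72% with the higher mean in libraries 5 to 8. Among 16 enzymes and chaperones of collagen processing and cross-linking, 2 were higher at an unadjusted p under 0.05 and 0 lower, with a median log2 fold change of 0.18. Their 2 most abundant members were the collagen chaperone Serpinh1 (log2 fold change 0.11) and lysyl oxidase, Lox (-0.26). Of 23 enzymes that build glycosaminoglycan chains, 22 were in the table, with 3 higher and 3 lower at an unadjusted p under 0.05 and a median of 0.08. Fam20b, the xylose kinase, and Chst2, a carbohydrate sulphotransferase, were the most abundant, at log2 fold changes of 0.13 and -0.10. Among 18 growth factors and receptors listed for their link to these proteoglycans, direct or through a ligand, 5 were higher and 0 lower at an unadjusted p under 0.05, with a median of 0.27. Lrp1, an endocytic receptor that takes up decorin, had a log2 fold change of 0.41 (limma-trend adjusted p = 0.214), and the TGF-beta receptor Tgfbr2 one of 0.48 (limma-trend adjusted p = 0.266), and the genotypes did not overlap in either gene, as in 3.4% of all genes with libraries 5 to 8 the higher.

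Of 10 further genes of the family, 6 were in the table (Epyc, Chad, Chadl, Tsku, Podn and Ecm2) and 0 of them passed the test or had an unadjusted p under 0.05. Epyc, for the class III protein epiphycan of cartilage and the inner ear, shares the chromosome 10 cluster with Dcn and Lum. It had 5433, 7993, 4052 and 8171 normalized counts in wild type and 5135, 2587, 6149 and 4092 in libraries 5 to 8. Its log2 fold change of -0.53 (limma-trend adjusted p = 0.388) had the opposite sign to those of Bgn, Fmod and Omd, and library 6, high in Dcn and Fmod, was the lowest in Epyc. Chad, for the cartilage protein chondroadherin, had a log2 fold change of 0.30 (limma-trend adjusted p = 0.355).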

How the data were processed

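The authors deposited 1 table for the 8 libraries, with a signal column per library that holds normalized counts (reads of a gene scaled by a factor for the library), as judged from the values. The submitters' processing notes name Partek, STAR and DESeq2 and the build mm10, and the role and version of each tool and the annotation are not given in the sources used here. Per the labels' protocols, samples of low RNA integrity (number under 7) were dropped and directional libraries were made from poly(A) RNA. The authors' deposited columns also give a p-value and FDR, a ratio of heterozygote to wild type and the log2 of that ratio. The authors also deposited a score, their fold change with a sign, which was left aside.

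For each library, the worth of 1 read was taken as the step size that makes the largest share of values under 1000 come out whole, within 0.05. The share of whole multiples was 88.4% to 91.7%, under the 95% needed to treat them as reads, so no count test was the main test. Genes that reached 10 normalized counts in 4 or more libraries were fitted as log2(value + 1) with limma-trend on all 8 libraries, without covariates, and adjusted over all 14870 genes by Benjamini-Hochberg with a threshold of 0.05. The fit was checked on data simulated without any outlying library. That check does not cover the changes seen when single libraries were left out. A fold change is on the log2(value + 1) scale and understates that of low genes. Transcript lengths came from GENCODE M21. Levels per kilobase used the longest coding transcript, and the length correction used the longest transcript of any type. For Dcn these were 1758 and 4692 bases. Ratios and correlations used two-sided exact permutation tests over libraries. The alternatives were no filter, a filter at 50, pseudocounts of 0.1 and 10, limma-voom on estimated reads, quantile and upper-quartile scaling, a length correction (loess, span 0.5), low Xist (under 100 normalized counts) as a covariate or left out, and each library left out in turn. Those for the correlations were chosen after seeing the data. The named genes are the 8 members, Mef2c, the most alike genes (5 for the mean of the z-scored members, 1 for each member), and from each list the genes past the test or otherwise the 2 most abundant. Slc6a13 was also given by library. Some genes that this rule names are not reported here. The members and lists were chosen with earlier results of these data known. R 4.3.3, limma 3.58.1, Python 3.11.15, numpy 2.4.6, pandas 2.3.3, scipy 1.17.1 and matplotlib 3.10.9 were used.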

Additional observations from a re-analysis of the deposited data

Results flagged for a closer look

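Of 28 groups of 4 libraries checked for a library far from the other 3 (the 8 members, Mef2c and the 5 ratios in each genotype), 2 stood out, and chance gives about 1 in 20, or 1.4. Ogn in wild type had a gap ratio of 0.913, because library 4 had 2229 normalized counts against 3065 to 3145 in the other 3. Lum in the libraries labelled heterozygote had a gap ratio of 0.857, because library 7 had 2075 normalized counts against 1378 to 1478. Wild-type library 4 was the lowest of all 8 libraries in 6 of the 8 members.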

How the results depend on the processing

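The number of members past the adjusted threshold was 0 in all 18 alternatives. The number of genes past it was 12, and it was 7 with quantile normalization, 25 with the length correction and 0 to 221 when single libraries were left out: 221 without wild-type library 3, 0 without wild-type library 2 or 4 or heterozygote-labelled library 8, 7 without library 5 and 6 without library 7. The cause was not tested. The log2 fold change of Dcn was -0.046 with the length correction and ran from -0.10 to 0.24 when libraries were left out singly, that of Lum from -0.12 to 0.25 and that of Prelp from -0.065 to 0.14, so that the sign of these 3 is not determined. Over the same fits Omd ran from 0.62 to 0.90, Bgn from 0.34 to 0.62, Fmod from 0.31 to 0.68, Ogn from 0.012 to 0.21 and Aspn from 0.035 to 0.43, and leaving out both libraries low in Xist gave 0.25 for Ogn and 0.57 for Aspn. With single libraries left out, the log2 ratio difference of Lum to Dcn ran from -0.11 to 0.17 and that of Aspn to Ogn from -0.080 to 0.22, while Bgn to Dcn, Omd to Ogn and Fmod to Prelp kept their sign, and 3 against 4 cannot pass 0.05. The number of correlated pairs of members was 1, and 0 to 2 with single libraries left out. No paired analysis was possible because replicates are numbered 1 to 4 and 5 to 8, with no number shared between groups.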
